A study of Strongylocentrotus purpuratus with 6 samples.

Results

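Univin and Chordin are secreted proteins that set up the body axes of the sea urchin embryo, and the RNA polymerase II (Pol II) peaks at both genes were examined in late blastulae of Strongylocentrotus purpuratus. The members are the 10 Univin and 21 Chordin cis-regulatory modules (CRMs, genomic regions that were tested with reporter constructs) among the 389 CRMs of 37 genes in the study's supplementary table, together with all Pol II peaks around them. For each gene the window runs from the first to the last CRM plus 2 kb on each side. It held 24 peaks at Univin and 34 at Chordin, 58 of the 554846 peaks in the deposited list.

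The samples are untreated whole embryos at 20 h, the hatching blastula stage, with 3 Pol II ChIP samples and 3 input samples. Each of the 3 extracts gave 1 sample of either kind. The 8WG16 antibody binds the repeated heptapeptide in the C-terminal domain of Pol II, and input is the same chromatin without immunoprecipitation. The authors combined the replicates before calling peaks, so there is 1 list for all samples, with the start and end of each peak and no height. No spread between replicates can be computed, the depth behind a peak is unknown, and no test was made: each value below describes 1 pooled list, in which only the length of a peak matters and its strength is not seen. Whole embryos mix cells that transcribe a gene with cells that do not, and a peak does not tell how many cells contribute to it.

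These genes have been studied in several sea urchin species, and their roles are given here as general background. Univin is a ligand of the TGF-beta family, related to Vg1 of vertebrates, and is needed for signalling by Nodal, the ligand that specifies the oral side of the embryo. Chordin is made in the oral ectoderm in response to Nodal. It binds the ligand BMP2/4 (Bmp24 in the CRM table), which is itself made orally and signals on the aboral side, and keeps it from its receptors near the source. Pol II is found at promoters and enhancers, where it initiates and pauses, and along the bodies of genes while it elongates, so peaks of the kind counted here can mark either.

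In the table, the second part of a CRM name begins with U, I or D, read here as upstream, intronic and downstream. Univin lies on Scaffold344 with its upstream CRMs at the lower positions, and Chordin on Scaffold1440 with its upstream CRMs at the higher positions. All positions refer to version 3.1 of the genome and are counted from 1. The Univin window spans 35.6 kb (Scaffold344 from 477262 to 512859) and the Chordin window 88.7 kb (Scaffold1440 from 46424 to 135114).

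**Figure D1:**
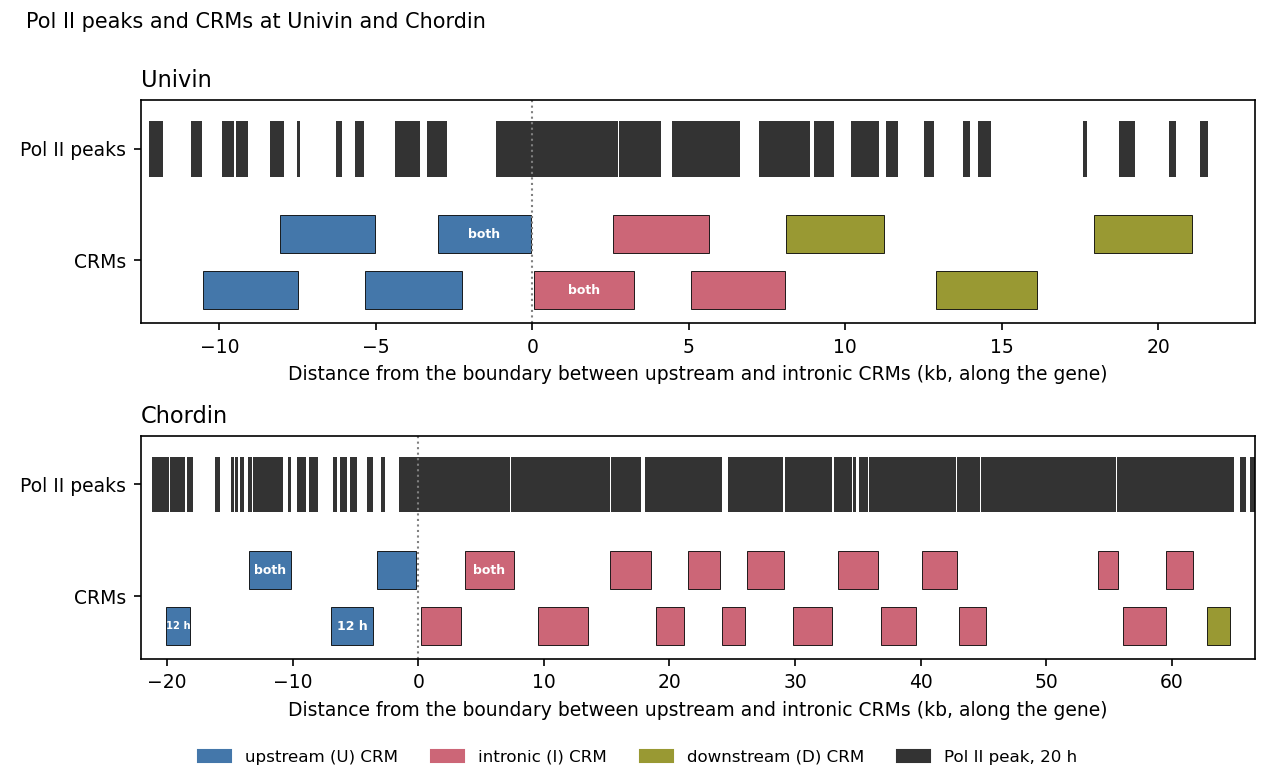
Pol II peaks (dark bars) and CRMs (boxes in alternate rows, coloured by position class) along both windows, drawn to scale, with the distance in kb from the boundary between upstream and intronic CRMs on the x axis and positive values running into the gene. White labels mark CRMs listed as active at 12 h or at both 12 h and 24 h. To the right of the boundary the bars form a nearly unbroken block over 61.4 kb at Chordin, 96.6% of it covered. At Univin they cover 87.9% of 8.03 kb, with gaps of up to 591 bp. To the left of the boundary, beyond the peaks that cross it, the bars are mostly shorter and farther apart, with 3 Chordin peaks of 1000 bp or more as exceptions.

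Pol II peaks took up more of the Chordin window, of which they covered 85.5%, than of the Univin window, of which they covered 48.0%. Among the 37 genes, ordered by the share of their windows under peaks, Chordin ranked 1 and Univin 26. The 35 other genes ranged from 13.9 to 82.8% with a median of 58.8%. Directly below Chordin came Dlx with 82.8%, a homeobox gene of the aboral ectoderm. Univin lay between Unc41 with 48.1% and FoxG with 47.1%, values that differ from it by less than 1 percentage point. Outside the windows, peaks covered 48.7% of Scaffold1440 and 28.9% of Scaffold344 up to the last peak of each, so both genes lay above the remainder of their own scaffold. The same held for all other genes except Six12 (25.1% against 29.8%) and Hnf1 (17.5% against 17.6%), so it does not set Univin and Chordin apart.

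A large part of the Chordin window is intronic. From the first to the last of its 16 intronic CRMs there are 61.4 kb, which is the third longest such span among the 32 genes with an intronic CRM. Pol II peaks covered 96.6% of that span, leaving 2079 bp uncovered. By the share of this span under peaks Chordin ranked 13 of 32, and 7 genes with shorter spans, among them FoxJ1 and IrxA, reached 100%. The 8.03 kb intronic span of Univin was covered over 87.9% and ranked 17. The median of the 30 other genes was 86.3%, with a range from 11.4 to 100%. Among the 8 genes with a span of 20 kb or more, a comparison chosen after the values were seen, Chordin was second with 96.6%, after Tbx23 with 99.1% and before Dach with 90.5%.

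**Figure D2:**
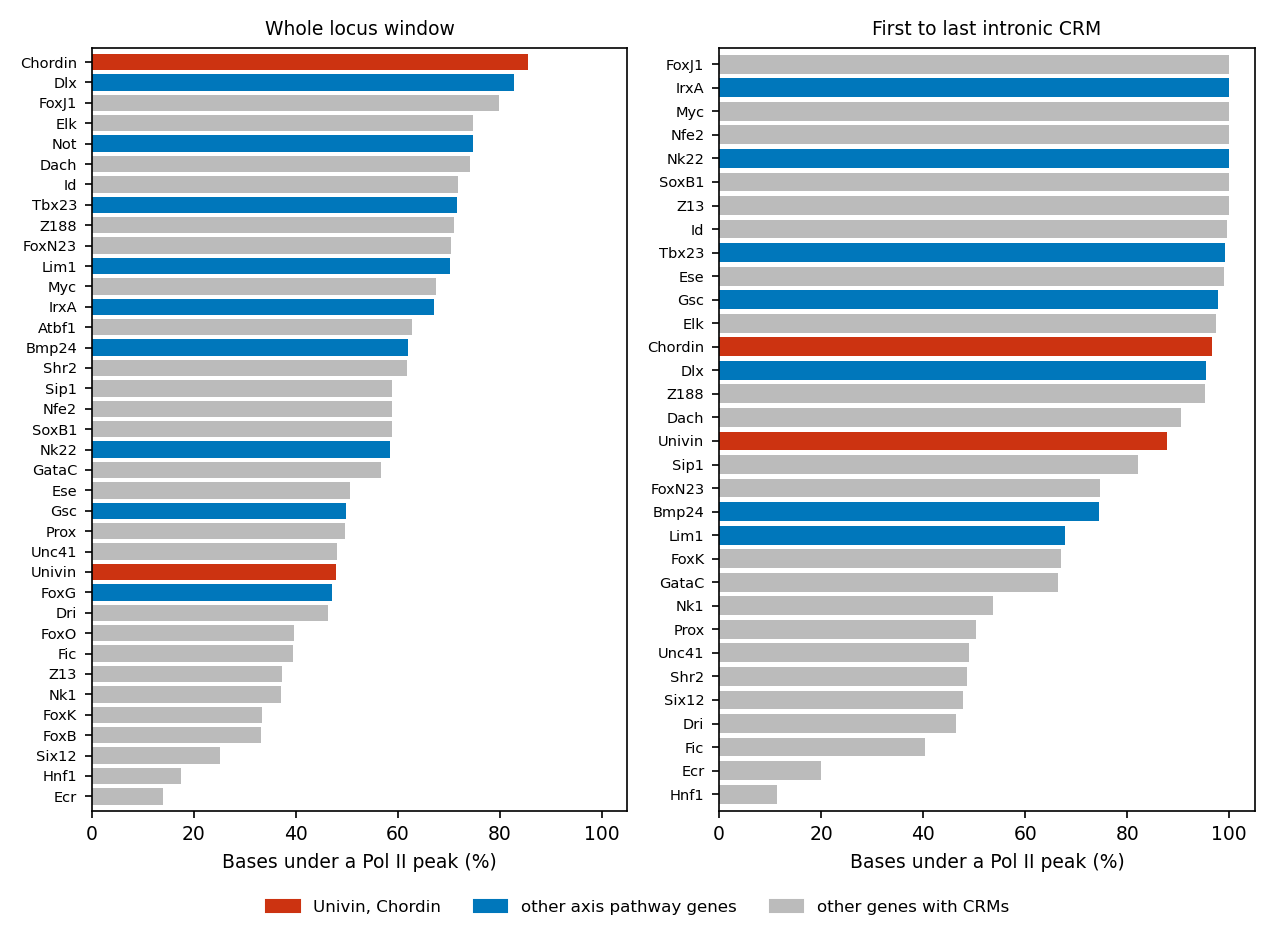
Share of bases under a Pol II peak (%, x axis) for the 37 genes over the whole locus window (left) and for the 32 genes with an intronic CRM over the span from the first to the last intronic CRM (right), each in falling order. Univin and Chordin are in red and the other genes of the axis pathway list in blue. Chordin leads the left panel with 85.5% and stands in place 13 of the right panel with 96.6%, while Univin stands in places 26 and 17.

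The peaks themselves were long at Chordin. Their median length was 588 bp (lower quartile 348 bp, upper quartile 2402 bp), and that of the Univin peaks was 406 bp (lower quartile 284 bp, upper quartile 699 bp). Over the whole list the median was 217 bp. At Chordin 14 of the 34 peaks (41.2%) and at Univin 4 of the 24 (16.7%) reached 1000 bp, beside 4.71% of all peaks in the list. By this share Chordin ranked 3 and Univin 15 of the 37 windows, and the 35 others ranged from 0 to 66.7% (FoxJ1) with a median of 12.9%. By the length of the longest peak Chordin ranked 10 and Univin 21. The lengths of neighbouring peaks are not independent, and CRM windows lie at genes, so the whole list is a description of scale and no control for these loci.

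**Figure D3:**
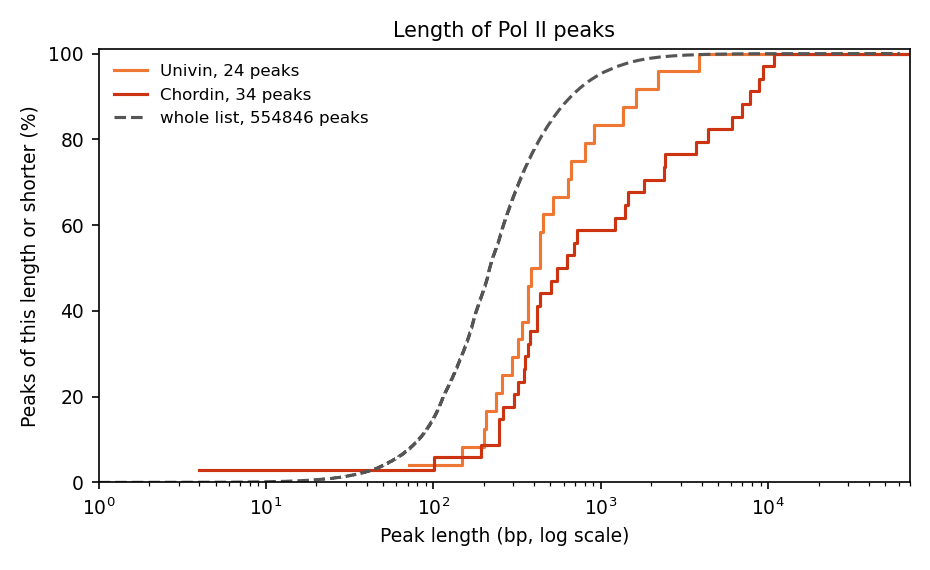
Cumulative share of peaks (%, y axis) by peak length (bp, log scale, x axis) for the 24 peaks of the Univin window, the 34 peaks of the Chordin window and the 554846 peaks of the whole list. Both loci lie to the right of the whole list over most of the range, and the Chordin curve reaches 100% only at 10759 bp, against 3881 bp for Univin.

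The 3 longest Chordin peaks measured 10759, 9269 and 8859 bp. The longest lay on Scaffold1440 from 57449 to 68207 in the distal introns, between Chordin_Ir_14-2 and Chordin_Ir_12, and most of it fell in sequence without a tested CRM. The second ran from 48105 to 57373 and covered Chordin_Dr_01, Chordin_Ir_16 and Chordin_Ir_15 entirely, so a single peak joined the downstream CRM to the last introns. The third, from 105718 to 114576, lay at the other end of the gene. It covered Chordin_Ir_01 entirely, 3586 bp of Chordin_Ir_02 and 1369 bp of Chordin_Ur_01, and so crossed the boundary from the introns to the upstream region, with 82.3% of its length on the gene side. Together these 3 peaks held 38.1% of all bases of the 34 peaks.

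In the intronic span of Chordin the list holds 13 peaks, 11 of them of 1000 bp or more. The 12 gaps between them had a median of 120 bp, the longest was 506 bp, and 8 were 200 bp or shorter. Gaps of 200 bp or less also occurred in other intronic spans, with 27 of 49 gaps at FoxN23 and 8 of 25 at Prox. Per the labels, the chromatin was sonicated to fragments mostly longer than 200 bp. Whether fragment length bears on the gaps was not tested. Joining peaks across gaps of 200 bp or less reduced the 34 peaks of the window to 21 and produced a single block of 29.8 kb on Scaffold1440 from 48105 to 77904. The same step changed Univin little, with 21 peaks in place of 24 and a longest block of 5262 bp.

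At Univin the 3 longest peaks measured 3881, 2186 and 1628 bp and held 45.1% of all bases of its 24 peaks. The longest, on Scaffold344 from 488621 to 492501, also crossed the boundary. It had 1111 bp in the last upstream CRM, Univin_Ur_01, 2676 bp in the first intronic CRM, Univin_Ir_01-2, and 133 bp in Univin_Ir_02. Of its length 70.2% lay on the gene side. It ended 30 bp before the next peak (492532 to 493882, 1351 bp). The second longest, from 494236 to 496421, lay in Univin_Ir_02 and Univin_Ir_03. The third, from 497013 to 498640, ran from Univin_Ir_03 into Univin_Dr_01, the first downstream CRM. All 4 Univin peaks of 1000 bp or more thus overlapped intronic CRMs, and the other 20 were at most 915 bp.

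Both genes had more coverage on the gene side of the boundary between upstream and intronic CRMs than upstream of it. Coverage did not fall at the boundary itself, since the peaks that cross it reached 1158 bp upstream at Univin and 1564 bp at Chordin. The first 5 kb into the gene were under peaks over 92.3% at Univin and 100% at Chordin, against 51.9% and 48.6% in the 5 kb upstream of the boundary. Farther upstream, from 5 to 10 kb, the shares were 35.4% at Univin and 53.4% at Chordin. Into the gene, from 5 to 10 kb, they were 78.7% and 97.4%. Over all genes of the table, intronic CRMs had a median share of 90.7% and upstream CRMs 55.8%. Higher coverage in introns is thus not particular to Univin and Chordin. In steps of 1 kb, 55 of the 88 whole steps of the Chordin window were covered entirely and 0 were empty, whereas at Univin 5 of 35 were covered entirely and 3 were empty. The boundary is the midpoint between the last upstream and the first intronic CRM. It is not an annotated transcription start site, since no gene model of this genome version was used here.

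Each of the 31 CRMs overlapped at least 1 peak, where 98.5% of all CRMs in the table do, so presence of a peak does not set these genes apart. Coverage did differ between them. At Chordin 14 of 21 CRMs had 90% or more of their bases under peaks (66.7%, Wilson 95% interval 45.4 to 82.8%), and at Univin 1 of 10 (10%, 1.79 to 40.4%), beside 30.1% of all CRMs. These intervals cover the counting of CRMs only and treat CRMs as independent, which they are not, since CRMs of a gene share peaks. They are no test of the difference between the genes. Position class also differs, as 16 of the 21 Chordin CRMs but 3 of the 10 Univin CRMs are intronic. Of the 14 Chordin CRMs, 13 were intronic and 1 was downstream, and none of its 4 upstream CRMs reached 90%. Among the intronic CRMs of the 35 other genes 47.6% reached it (70 of 147).

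Intronic CRMs of Univin were covered over 99.1% (Univin_Ir_01-2), 87.4% (Univin_Ir_02) and 80.4% (Univin_Ir_03), lower with each CRM away from the upstream boundary. Neighbours among these CRMs overlap each other. In steps of 1 kb the fall was not steady, with 64.7% from 4 to 5 kb into the gene and 100% from 5 to 6 kb. Of the downstream CRMs of Univin, Univin_Dr_01 had 74.5%, Univin_Dr_03 had 19.6% and Univin_Dr_05, the farthest, had 24.04%. The 4 upstream CRMs ranged from 23.0% in Univin_Ur_03 to 47.0% in Univin_Ur_01. Every intronic CRM of Univin was therefore above every other CRM of the gene. Taken over merged sequence, intronic CRMs exceeded the others by 47.6 percentage points (87.9% against 40.3%), which ranks 5 among the 32 genes for which both can be computed. Without the longest peak this difference was 19.8 percentage points.

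Neighbouring CRMs of Univin differed most at the upstream boundary and among the downstream CRMs. From Univin_Ur_01 to Univin_Ir_01-2 the share was higher by 52.1 percentage points, and Univin_Dr_01 exceeded Univin_Dr_03 by 55.0 percentage points, while the last intronic and first downstream CRM (80.4% and 74.5%) lay close together. The longest stretch without a peak in the window lay just beyond, on Scaffold344 from 504435 to 507356. It measured 2922 bp between a peak of 430 bp and one of 148 bp, and its first part belongs to Univin_Dr_03. The second longest peak-free stretch, 1577 bp from 487044 to 488620, lay directly upstream of the longest peak and took up more than any peak did of Univin_Ur_01.

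**Figure D4:**
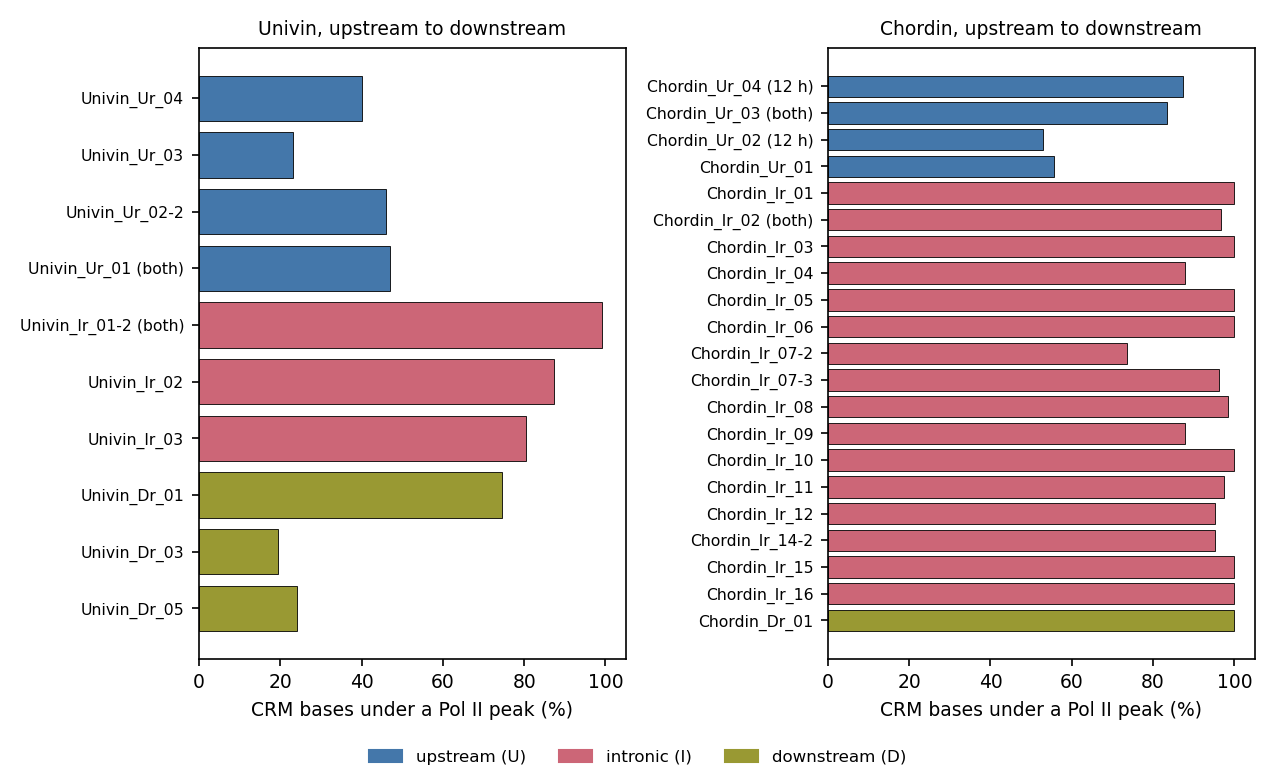
Share of the bases of each CRM under a Pol II peak (%, x axis from 0), for the 10 Univin CRMs and the 21 Chordin CRMs, ordered from upstream to downstream along the gene and coloured by position class; names carry the times at which a CRM is listed as active. The longest Univin bar is Univin_Ir_01-2 (99.1%), with shorter ones step by step to 19.6% in Univin_Dr_03, while the Chordin bars stay between 73.6 and 100% in the introns and are lowest in Chordin_Ur_02 (52.9%).

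The 16 intronic CRMs of Chordin averaged 95.5 ± 7.07% of their bases under peaks (SD over CRMs, which are not replicates), with a median of 97.9%, and 7 were covered entirely. The lowest was Chordin_Ir_07-2 with 73.6%, in which a gap of 506 bp between 2 long peaks took up the uncovered end, while its neighbours Chordin_Ir_07-3 and Chordin_Ir_06 had 96.2% and 100%. Intronic CRMs of other genes had a median of 88.4% with quartiles of 61.8 and 100%. The intronic CRMs of Chordin showed no such order as the few at Univin, since Chordin_Ir_16, farthest from the upstream boundary, and Chordin_Ir_01, nearest to it, were both at 100%. Over merged sequence the intronic CRMs of Chordin had 96.0% and its other CRMs 72.3%, a difference of 23.7 percentage points and rank 18 of 32.

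Upstream of Chordin the 4 CRMs had 55.6% (Chordin_Ur_01), 52.9% (Chordin_Ur_02), 83.4% (Chordin_Ur_03) and 87.4% (Chordin_Ur_04). Coverage was thus higher in the pair far from the gene than in the pair next to it. Upstream CRMs of the other genes had a median of 56.9% with quartiles of 37.7 and 80.6%, so the distal pair lay above the upper quartile. Of the 19 peaks that lay wholly upstream of the boundary, 3 reached 1000 bp, and these were 1 in Chordin_Ur_03 (123767 to 126150, 2384 bp) and 2 neighbours in and beyond Chordin_Ur_04 (131589 to 132804, 1216 bp, and 132845 to 134235, 1391 bp). The other 16 measured between 4 and 688 bp. The 4 bp peak lies beside the longest peak-free stretch of the window, 1315 bp from 129634 to 130948, and is far shorter than a 50 bp read. Peaks under 50 bp made up 3.87% of the list.

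The table lists each CRM as active or not in reporter embryos at 12 h and at 24 h, times that do not match the 20 h of the ChIP samples. These classes are used here as names, and reporter levels were not analysed. At Univin the active CRMs were Univin_Ur_01 and Univin_Ir_01-2, at both times. They are the 2 CRMs on either side of the boundary, and the longest peak of the locus lay over both. This peak also covered 133 bp of Univin_Ir_02, which is not listed as active. The 2 active CRMs had 1399 and 3165 bp under peaks, while the other 8 had between 631 and 2657 bp with a median of 1327 bp. By share they ranked 5 and 1 of the 10, and neighbouring CRMs that overlap each other share some of these bases.

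At Chordin the active CRMs were Chordin_Ir_02 and Chordin_Ur_03 at both times, and Chordin_Ur_02 and Chordin_Ur_04 at 12 h only. Their shares under peaks were 96.7%, 83.4%, 52.9% and 87.4%, which are ranks 11, 18, 21 and 17 of the 21. The other 17 CRMs had a median of 98.3%, with a range from 55.6 to 100%, and the shortest of their longest overlapping peaks was 3705 bp. In bases, the 4 had between 1718 and 3778 bp under peaks and the others between 1322 and 3949 bp, so the range of the active ones lay within that of the others. Chordin_Ir_02, with 3778 bp, was second in the locus after Chordin_Ir_03 with 3949 bp, which is not listed as active. These are also the longest CRMs of the locus, with 3907 and 3949 bp, and covered bases cannot exceed the length of a CRM. Of the 4 active CRMs 3 are upstream, and of the 17 others 15 are intronic, so activity and position class cannot be told apart at this gene. Among the upstream CRMs alone the active ones had 52.9%, 83.4% and 87.4% and the remaining one 55.6%. The peaks that carry 500 bp or more of an active CRM were 1 at Univin and 5 at Chordin, and ranged from 501 bp (118708 to 119208, in Chordin_Ur_02) to 8859 bp (the boundary peak, in Chordin_Ir_02). Another, of 545 bp from 117914 to 118458, also lay in Chordin_Ur_02. Over all 37 genes, the 85 CRMs active at either time had a median share of 83.4% and the 304 others 64.6%. The 132 intronic CRMs among those others had a median of 88.4%, and all 166 intronic CRMs, active or not, had 90.7%. Active intronic CRMs were not taken alone, and the part of position class in the difference by activity was not tested.

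Univin has a second axis gene beside it. Bmp24, which encodes the BMP2/4 ligand that Chordin binds, lies on the same scaffold, and its CRM window (508229 to 560912) begins inside that of Univin. The windows share 4631 bp with 3 peaks, of which 21.8% is under peaks, and Univin_Dr_05 shares 631 bp with Bmp24_Ur_08. Bmp24 had 65 peaks with a median of 262 bp and 62.1% of its window under peaks, while Univin had 24 peaks with a median of 406 bp. Per 10 kb there were 6.74 peaks at Univin and 12.3 at Bmp24. At Chordin there were 3.83 per 10 kb, which ranked 35 of 37. At Chordin few peaks thus went with the highest coverage among the 37 genes. Near it in this order, Myc (2.38 per 10 kb), FoxJ1 (2.66) and Z13 (3.88) had 67.4%, 79.9% and 37.2% of their windows under peaks. Without the stretch shared with Bmp24 the share of the Univin window was 51.9%.

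The axis pathway list held 11 genes of the table: the signalling genes Univin, Chordin and Bmp24, the transcription factor genes Gsc, Not, FoxG and Lim1 of the oral ectoderm, and Tbx23, IrxA, Dlx and Nk22 of the aboral ectoderm. The median share of their windows under peaks was 67.0%, and 58.8% over all 37 genes. Of the 11, which include Chordin at rank 1, 7 were at or above the median of all genes, as were 19 of all 37 genes. The oral genes ranged from 47.1% (FoxG) to 74.7% (Not), with 49.9% in Gsc and 70.2% in Lim1. The aboral genes had 71.5% in Tbx23, 67.0% in IrxA, 82.8% in Dlx and 58.5% in Nk22. Chordin and Univin thus lay at the top and second from the bottom of the list, and no shared level of Pol II coverage was seen among the signalling genes.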

How the data were processed

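One deposited list of Pol II peaks from 20 h embryos was used. Per the paper's methods, the authors combined the replicates, aligned 50 bp single-end reads to genome version 3.1 with Bowtie 2 and ran MACS at default settings with the pooled input as control; the submitters' processing notes name MACS 1.4.2 and Bowtie 1.0.1. The list holds scaffold, start and end in bp. Its smallest start is 0, so starts were read as counted from 0, as were those of the CRM table, and 1 was added for printing. No deposited column was left unused.

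CRM positions and activity classes came from the study's supplementary table; its reporter, ATAC, PRO-seq and Pol II values were not used. Overlap needed 1 bp. Covered bases were counted after merging overlapping CRMs, and per CRM without merging. The members, lists and comparisons were chosen with earlier results of these data known. Peaks named are the 3 longest at each gene, those with 500 bp or more of an active CRM and those beside the longest peak-free stretch; CRMs named are the active ones, the extremes and the neighbours that differ most. Counting was checked on 500 simulated windows, with 0 wrong. Python 3.11.15 and numpy 2.4.6 were used. No gene model of version 3.1 and no sequence was used here.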

Additional observations from a re-analysis of the deposited data

How the results depend on the processing

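No paired analysis was possible because replicates were merged before peaks were called, so none could be left out either. Keeping the upper part of the peaks by score was not run, as the files give no score. Of 93 values recomputed for Univin and Chordin under 11 settings, 5 moved beyond the limit set for them. For shares and medians that limit was a 95% counting interval with peaks or CRMs as trials, too wide to show that the other 88 are stable. The number of peaks became 44 at Univin and 54 at Chordin with 10 kb on each side, and 21 at Chordin after joining peaks across gaps of 200 bp or less. Univin CRMs covered over 90% or more numbered 0 without the longest peak and 3 at a threshold of 75%. Without the longest peak of each gene, the intronic excess was 19.8 percentage points at Univin, against 47.6 with it, and 19.5 at Chordin, and the share of the window under peaks 37.1% and 73.4%. With peaks of 300 bp or more only, the median length was 967.5 bp at Chordin, against 587.5 bp for all peaks, and by share of the window Chordin ranked 1 and Univin 23 of 37. Counting starts from 1, leaving out the stretch shared with Bmp24 and the order among long intronic spans were added after the data were seen.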

Other observations

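Pol II coverage near the windows differed between sides. In the 20 kb before the Univin window, on its upstream side, 21.9% was under peaks, and in the 20 kb after it, which lie in the Bmp24 window, 77.4%. At Chordin the 20 kb after the window, on its upstream side, were covered over 62.8% and the 20 kb before it over 38.7%. The peak over Chordin_Dr_01 began at 48105 on Scaffold1440, and the 2 peaks beyond it measured 415 and 379 bp.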
